A study of Homo sapiens with 18 samples.

Results

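The genes described here are 41 interferon-stimulated genes, the transcripts a cell makes more of when interferon or viral RNA is sensed. They were listed by name. Each gene was read from 1 probe set, the one with the highest mean over the 18 arrays among the probe sets that the platform annotation gives to that gene alone. Such a probe set was found for 40 of the 41 genes, and 32 of them reached the median level of all probe sets, an intensity of 102, and were tested. They stood among 19775 genes with a probe set of their own and 12376 genes tested. The gene STAT2 is not analysed here.

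The cells were U251, an established human glioblastoma line, so every group is the same single line with no genetic change named. They were exposed to DMSO, the solvent control, or to enzastaurin, a small molecule made to block the beta form of protein kinase C, for 4, 10 or 18 h. Each of these 6 groups had 3 HG-U133 Plus 2.0 arrays of total RNA, and all groups were kept in RPMI medium with serum. The labels give no dose, and they name no interferon, virus or other stimulus in any group. They do not say whether the 3 replicates came from separate cultures, so a p-value here reflects the spread among these arrays only, and that spread may be technical.

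Type I interferons bind a receptor made of IFNAR1 and IFNAR2, whose attached kinases JAK1 and TYK2 phosphorylate STAT proteins. The phosphorylated STAT proteins join IRF9 in a complex that binds the interferon-stimulated response element, a short motif in the promoters of many of these genes. Their products sense viral RNA, block viral entry, translation, assembly and release, or restrain the pathway itself. CD274, which encodes PD-L1, the ligand that restrains T cells, is also raised by interferons, interferon gamma above all.

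At 10 and 18 h more interferon-stimulated genes were called lower than higher with enzastaurin against DMSO. At 10 h 5 of the 32 tested genes were called lower and 0 higher, where 4.69% of all genes were called lower and 3.77% higher. At 18 h 11 of the 32 tested genes were called lower (IFIT1, IFIH1, IFITM2, ISG15, TRIM22, OAS3, IFIT3, IFITM3, BST2, CD274 and EIF2AK2) and 1, IFI44L, higher, where 7.9% of all genes tested were called lower and 8.1% higher. Changes below 0, called or not, numbered 26 of 32 at 10 h (all genes, 53.1%) and 21 of 32 at 18 h (all genes, 49.8%). IFIT1, whose protein binds viral RNA that lacks a host cap, averaged 51.4 ± 8.2 (SD, n = 3) with enzastaurin and 215 ± 82.0 (SD, n = 3) with DMSO at 18 h. ISG15, a ubiquitin-like modifier, averaged 1193 ± 89.8 (SD, n = 3) against 2047 ± 368 (SD, n = 3). Genes were called when the Benjamini-Hochberg adjusted p of limma, adjusted over all 12376 genes in each comparison, was below 0.05.

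The response element was looked for as GAAANNGAAA on either strand in RefSeq promoter windows of 300 bases, 250 before to 50 after a transcription start, in GRCh38.p14. A window was found for 32 of the 41 genes, and 22 of these (68.8%) held the motif, against 4.38% of all genes in the window table and 3.88% of the genes tested. Counted by window, 26 of 43 windows of the listed genes (60.5%) and 3.57% of 35116 windows held it. All 11 genes called lower at any time that had a window held the motif, as did 8 of the 14 tested genes with a window that were not called (57.1%). A second motif, TTCNNNGAA, bound by STAT dimers after interferon gamma, was present for 11 of the 32 genes and for 9.38% of all genes. Its split by call ran the other way, with 2 of the 11 genes called lower and 7 of the 14 tested genes not called. Whether either motif differed between called and uncalled genes was not tested. A window can hold both motifs. TRIM22, MX2, IFITM2, USP18, OAS2, DHX58, OASL, IFIT2 and IRF7 had no window. A match describes letters in the window and is not a measured binding site. The stretches below are those of 8 genes called lower, and of the 1 called higher, whose matches and flanks of 10 bases lie wholly before the start. Each is written 5′ to 3′ in the direction of transcription, with the bases that match the response element in capitals.
IFIT1: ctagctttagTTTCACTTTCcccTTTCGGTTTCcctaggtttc
IFIT3: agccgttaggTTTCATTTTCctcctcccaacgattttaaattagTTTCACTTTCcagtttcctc
ISG15: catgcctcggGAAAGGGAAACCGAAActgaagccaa
IFIH1: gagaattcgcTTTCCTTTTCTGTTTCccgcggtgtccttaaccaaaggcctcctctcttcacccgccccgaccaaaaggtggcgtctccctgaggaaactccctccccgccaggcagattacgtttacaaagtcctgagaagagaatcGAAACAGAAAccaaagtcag
IFITM3: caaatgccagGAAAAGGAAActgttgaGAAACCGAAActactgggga
BST2: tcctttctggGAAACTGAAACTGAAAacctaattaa
SAMD9: tctgagaaatGAAACTGAAAccaaacctat
CD274: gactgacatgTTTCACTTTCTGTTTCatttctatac
IFI44L: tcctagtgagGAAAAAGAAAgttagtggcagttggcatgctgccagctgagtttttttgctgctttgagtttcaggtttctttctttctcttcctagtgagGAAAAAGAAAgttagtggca
The IFIT1 stretch lies at chr10:89392497-89392539 (plus strand) and the IFIT3 stretch at chr10:89327831-89327894 (plus strand). Those of ISG15, IFITM3 and BST2 lie at chr1:1013374-1013409 (plus strand), chr11:320876-320922 (minus strand) and chr19:17405735-17405770 (minus strand). The IFIH1 stretch lies at chr2:162318686-162318853 (minus strand) and holds 3 matches. Those of SAMD9, CD274 and IFI44L lie at chr7:93118096-93118125 (minus strand), chr9:5450324-5450359 (plus strand) and chr1:78620274-78620394 (plus strand). In ISG15, BST2 and CD274 the 2 matches overlap by 4 bases, giving a run of 3 GAAA or TTTC repeats. IFI44L, the gene called higher, carries 2 matches with the same letters. The motif was thus present upstream of genes that moved in either direction and of genes that were not called.

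**Figure D1:**
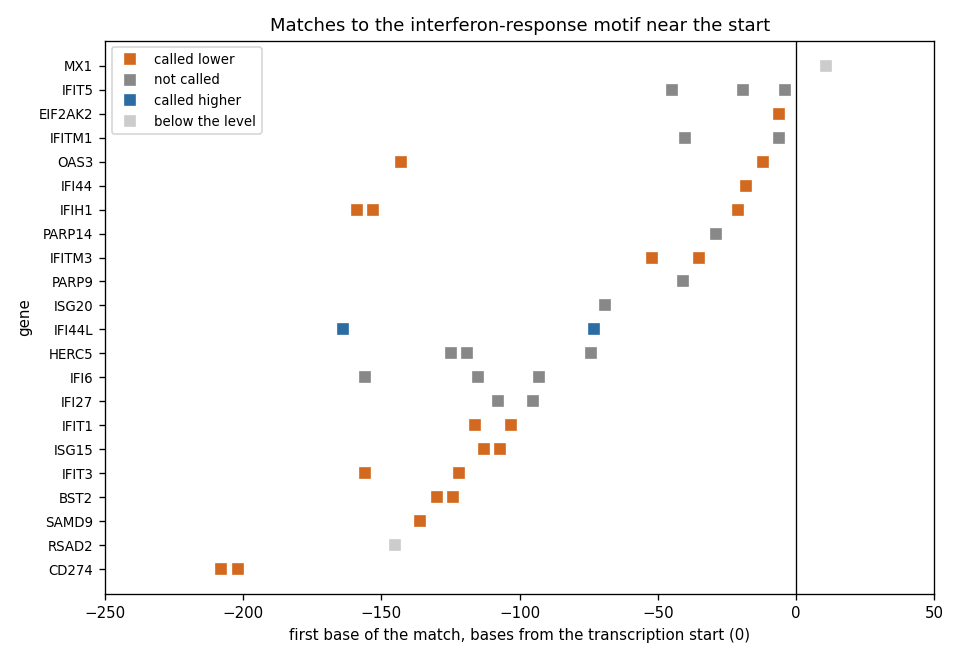
Position of each match to the interferon-response motif (horizontal axis, bases from the transcription start at 0) for the 22 genes that hold one, with 1 square per match and 1 row per gene. Colours give the call at 4, 10 or 18 h; the 11 genes called lower and IFI44L, called higher, are mixed by position with the 8 tested genes that were not called and with MX1 and RSAD2, which were below the level tested.

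The 40 genes covered a wide range of intensity without any added interferon. IFI44 (mean 2554 over the 18 arrays, averaged on the log2 scale and turned back to intensity), EIF2AK2 (2108), ISG15 (1628) and BST2 (1038) were the 4 genes above 1000. At the other end, DHX58 averaged 9.4, and IFIT2, MX1, OAS1, IRF7, HERC6, RSAD2 and XAF1 were also below the median level of all probe sets and were not tested. The 8 untested genes include classical antiviral effectors, such as the GTPase MX1 and the radical-SAM enzyme RSAD2. An intensity depends on the probes as well as on the transcript, so these levels do not rank one gene's transcript number against another's.

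**Figure D2:**
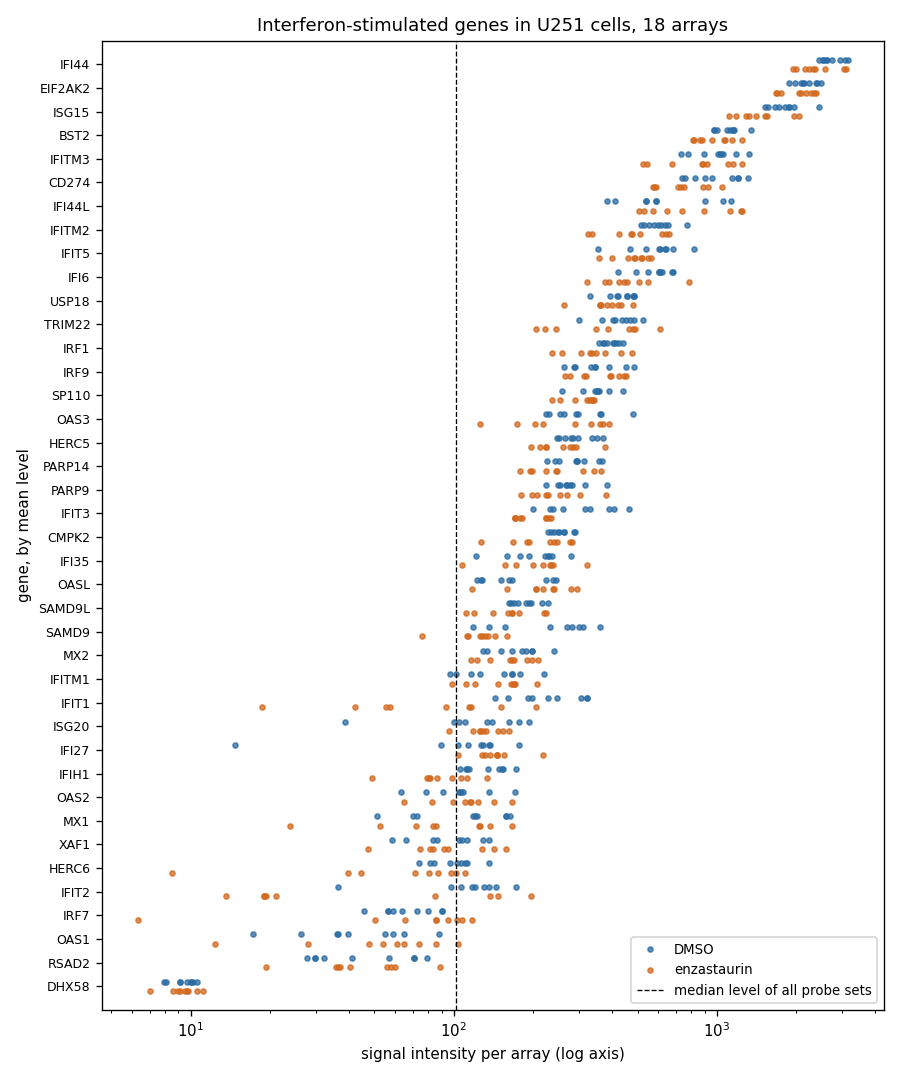
Signal intensity of the 40 genes with a probe set (horizontal axis, logarithmic) on each of the 18 arrays, 9 DMSO and 9 enzastaurin, with genes ordered by mean level. The dashed line is the median level of all probe sets, 102; the 8 genes below it on the log2 scale were not tested, and the 4 highest genes average above 1000.

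The arrays were alike in their trimmed means, from 498.2 to 498.8, but their medians ran from 99.2 to 125.9. Correlations between arrays of a group ran from 0.951 to 0.969. With array medians subtracted, 49 of the values recomputed for called genes kept their call and 26 lost it. The median standard error was 0.134 for a log2 change at 1 time, 0.0773 for the average over the 3 times and 0.189 for a difference between times, and the 3 arrays per group limit this precision. Of 11 glial and glioma markers, VIM (mean 32373), CD44 (19162), NES, SOX2, SOX9, EGFR, SLC1A3 and PDGFRA were above the median level, and GFAP (22.3), S100B (11.3) and AQP4 (53.4) were below it. GFAP, the defining marker of mature astrocytes, was thus low on these arrays. Of the leukocyte markers, 8 had a probe set. Their sums per array ran from 1148 to 1272, 739 to 997 and 873 to 978 in DMSO at 4, 10 and 18 h. In enzastaurin they ran from 997 to 1043, 851 to 1301 and 802 to 1548. PTPRC (mean 37.8), CD14 (16.2) and LYZ (51.7) were below the median level. CD53 (274.7), LAPTM5 (194.9), ITGAM (155.9), CSF1R (125.7) and CD3E (115.3) were above it. The 4 endothelial markers summed to between 351 and 602 on every array. Of these, PECAM1 (mean 321.2) was above the median level and the other 3 were below it. The leukocyte sums were lower with enzastaurin without overlap at 4 h and overlapped at 10 and 18 h, the glial and endothelial sums overlapped at each time, and their part in the results was not tested. In RNA from whole cultures, fewer cells that express a gene and less RNA per cell cannot be told apart.

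At 4 h, 1 of the 32 genes was called, CD274, which was lower, where 1.25% of all genes tested were called lower and 0.558% higher. The median log2 change was -0.07 over the 32 genes and 0.00 over all genes, and 21 of 32 changes were below 0, against 49.8% of all genes. All 3 enzastaurin arrays read below all 3 DMSO arrays for 4 genes (IFIT1, IRF1, SAMD9L and CD274), where 9.13% of all genes did so. CD274 was thus the only gene of the list past the threshold at the first time.

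At 10 h, 5 genes were called lower (SAMD9, IFIT3, CD274, ISG15 and IFI44) and 0 higher, which is 5 of 32 where 4.69% of all genes were called lower and 3.77% higher. At an unadjusted limma p below 0.05, 9 genes were lower and 0 higher, where 11.6% of all genes were lower and 9.5% higher. The same counts were 3 lower and 0 higher at 4 h (all genes, 6.75% and 5.83%) and 14 lower and 1 higher at 18 h (13.6% and 14.4%). The largest called change was that of SAMD9, at -1.38 on the log2 scale. The median change was -0.23 against -0.02 over all genes, and 26 of 32 changes were below 0 (all genes, 53.1%). The 2 groups did not overlap, with enzastaurin lower, for 13 genes, where 15.0% of all genes did so.

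At 18 h, 11 genes were called lower and 1 higher, where 7.9% of all genes were called lower and 8.1% higher. The median change was -0.20 against 0.00, and 21 of 32 changes were below 0 (all genes, 49.8%). All enzastaurin arrays lay below all DMSO arrays for 15 genes, where 14.4% of all genes did so. The genes of the list therefore moved in both directions at this time, with changes from -1.73 for IFIT1 to 0.82 for IFI27, the latter not called.

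Averaged over the 3 times, 9 genes were called lower (CD274, IFIT3, IFIT1, ISG15, SAMD9, IFI44, IFITM2, IFITM3 and IFIH1) and 1 higher (IFI44L), where 9.44% of all genes were called lower and 9.07% higher. The median average change was -0.19 against -0.01. Of the 32 genes, 14 (43.8%) had a change below 0 at all 3 times, against 18.6% of all genes, and 14 were called at 1 time or more (all genes, 20.2%). Only CD274, IFIT3 and ISG15 were called at 2 times or more (9.38% of the 32 genes, against 5.46% of all genes). CD274 alone was called at all 3 times (3.12%, against 0.598% of all genes). The average call of IFIH1 was lost without 11 of the 18 single arrays (adjusted p up to 0.0747); it was kept without DMSO replicate 2 at 4 h, 1 at 10 h or 3 at 18 h, or enzastaurin replicate 2 at 4 h, 3 at 10 h, or 1 or 2 at 18 h. Other settings changed 1 choice of the analysis each, such as fitting only the groups compared, averaging the probe sets of a gene, subtracting the median of each array or leaving out the variance trend. Under them the adjusted p of average calls was 0.0646 with no level filter, 0.0542 with quantile normalization and 0.0764 with array medians subtracted for IFIH1, 0.0966 with array medians subtracted and 0.152 with the mean over probe sets for IFI44 and 0.133 with array medians subtracted for IFITM3.

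**Figure D3:**
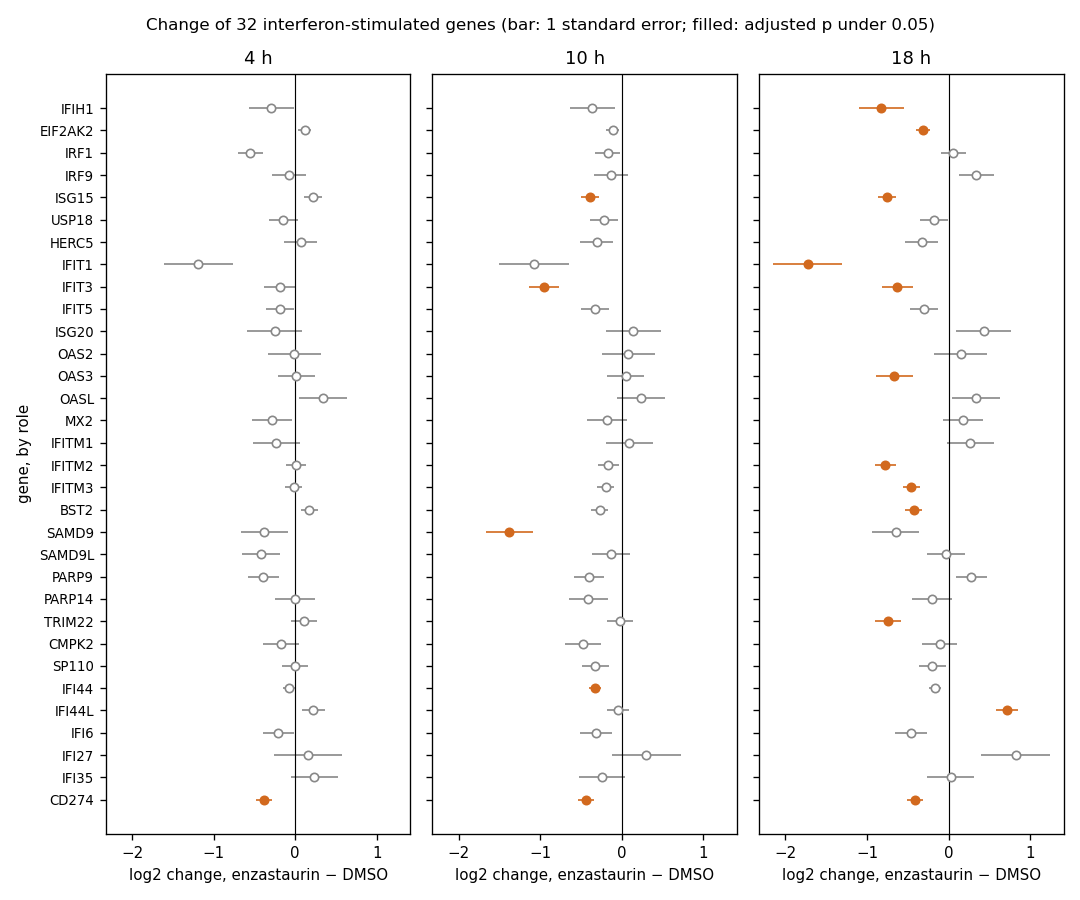
Log2 change, enzastaurin minus DMSO, of the 32 tested genes (rows, ordered by role) at 4, 10 and 18 h, with bars of 1 standard error and filled points where the adjusted p is below 0.05. Filled points number 1 at 4 h, 5 at 10 h and 12 at 18 h, and all but IFI44L at 18 h lie to the left of 0.

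Among the sensors of viral RNA, IFIH1 encodes MDA5, which detects long double-stranded RNA, and EIF2AK2 encodes PKR, the kinase that halts translation when it binds such RNA. IFIH1 read 154, 149 and 113 in DMSO and 86.5, 81.1 and 48.8 in enzastaurin at 18 h. The groups did not overlap, with enzastaurin replicate 3 the lowest array, and the change was -0.83 (SE 0.28, adjusted p = 0.0466). Earlier the arrays overlapped, with 152, 106 and 173 in DMSO and 107, 134 and 98.6 in enzastaurin at 4 h. The 10 h arrays of IFIH1 read 112, 114 and 135 in DMSO and 79.1, 80.9 and 112 in enzastaurin. The 18 h call was lost without DMSO replicate 1 or 2 or enzastaurin replicate 2 or 3, with an adjusted p of up to 0.187, and in 6 other settings (up to 0.163, with only the groups compared).

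EIF2AK2 read 2141, 2402 and 1881 in DMSO and 1759.5, 1674 and 1700.0 in enzastaurin at 18 h, with all enzastaurin arrays lower. Its change was small, -0.31 (SE 0.08, adjusted p = 0.0107), on 1 of the brightest probe sets of the list, and the adjusted p was 0.0831 without DMSO replicate 2, 0.12 with array medians subtracted and 0.0523 with only the groups compared. At 4 h it read 1984, 2095 and 2134 in DMSO and 2278, 2086 and 2375 in enzastaurin, and at 10 h 2381, 2482 and 2249 in DMSO and 2192, 2340.3 and 2047 in enzastaurin. At both earlier times the groups overlapped. The other EIF2AK2 probe sets gave -0.38 and -0.19 at 18 h, neither called. Their adjusted p was 0.0792 and 0.546 in the limma fit over all probe sets. DHX58, which encodes LGP2, the regulator of MDA5, was between 7.0 and 11.2 on every array.

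Of the transcription factors, IRF1 activates interferon and antigen-presentation genes and IRF9 is the DNA-binding partner of the STAT complex. IRF1 read 439, 414 and 369 in DMSO and 236, 331 and 259 in enzastaurin at 4 h. All enzastaurin arrays were lower, yet the change of -0.55 (SE 0.15, adjusted p = 0.0768) did not pass. The arrays overlapped at 10 h, with 383, 358 and 427 in DMSO and 347, 304 and 377 in enzastaurin, and at 18 h, with 372, 402 and 406 in DMSO and 433, 335 and 475 in enzastaurin. Within the enzastaurin arrays IRF1 rose from 4 to 18 h, by 0.56 (SE 0.15, adjusted p = 0.00838), a call that missed the threshold without enzastaurin 4 h replicate 1 (adjusted p = 0.0512). IRF9 had changes of -0.07, -0.14 and 0.34 at 4, 10 and 18 h, none called, and IRF7, the factor that amplifies interferon production, was below the level tested.

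ISG15 is a ubiquitin-like protein that HERC5 attaches to newly made proteins and USP18 removes. It read 2449.7, 1963 and 1729 in DMSO and 1288, 1184 and 1109 in enzastaurin at 18 h. The groups were far apart, and the change was -0.76 (SE 0.11, adjusted p = 4.7e-05), with an adjusted p of at most 0.00147 over the alternatives. At 10 h it read 1884, 1873 and 1823 in DMSO and 1331, 1521 and 1412 in enzastaurin, again without overlap, for a change of -0.39 (SE 0.11, adjusted p = 0.0335). That earlier call was lost when any array but enzastaurin replicate 2 was left out (adjusted p up to 0.13) and in 4 other settings (up to 0.139, with array medians subtracted). At 4 h it read 1671, 1521 and 1569.5 in DMSO and 1554, 1957 and 2049 in enzastaurin, with 1 enzastaurin array among the DMSO arrays and the others above them.

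The enzymes around ISG15 were not called. The log2 changes of USP18 were -0.14, -0.22 and -0.18 at 4, 10 and 18 h, each with a standard error of 0.17. Those of HERC5 were 0.07, -0.31 and -0.33, each with a standard error of 0.20. HERC6, a relative of HERC5, was below the level tested.

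The IFIT proteins bind foreign RNA and shut its translation. IFIT1 read 198, 144 and 305 in DMSO and 55.1, 42.0 and 57.2 in enzastaurin at 18 h. Every enzastaurin array was below every DMSO array, and the change of -1.73 (SE 0.43, adjusted p = 0.0073) was the largest in size among the tested genes. At 4 h it read 193, 161 and 228 in DMSO and 114, 151 and 18.7 in enzastaurin, and the 10 h arrays read 321, 247 and 321 in DMSO and 116, 93.2 and 205 in enzastaurin. Enzastaurin was lower without overlap at these times too, but the enzastaurin arrays were far apart (18.7 was the lowest of the 18 arrays) and neither -1.19 (SE 0.43, adjusted p = 0.215) nor -1.08 (SE 0.43, adjusted p = 0.14) passed. The average over times was -1.33 (SE 0.25, adjusted p = 5.5e-04).

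IFIT3, the partner that stabilizes IFIT1, read 408, 390.3 and 260.2 in DMSO and 171, 171 and 170.4 in enzastaurin at 10 h. The 3 enzastaurin arrays were almost equal there, all below DMSO, and the change was -0.96 (SE 0.19, adjusted p = 0.00231). At 18 h it read 463, 316 and 331 in DMSO and 235, 225 and 231 in enzastaurin, which is -0.63 (SE 0.19, adjusted p = 0.0251) on the log2 scale, and at 4 h 233, 200.4 and 239.5 in DMSO and 224, 178 and 183 in enzastaurin, with overlap. The 18 h call was lost without DMSO replicate 1 or any 1 of the enzastaurin replicates (adjusted p up to 0.152). A second IFIT3 probe set gave -0.32 at 10 h and -0.14 at 18 h, neither called, and the adjusted p at 18 h was 0.0527 with no level filter, 0.113 with the mean over probe sets and 0.0534 with only the groups compared.

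IFIT5 read 467, 634 and 353 in DMSO and 357, 401 and 489.9 in enzastaurin at 4 h. Its values were 539, 682 and 638 in DMSO and 461, 519 and 486 in enzastaurin at 10 h. IFIT5 at 18 h read 609.9, 603 and 821 in DMSO and 548, 517 and 562 in enzastaurin. Enzastaurin was lower without overlap at 10 and 18 h, but the changes of -0.33 (SE 0.17, adjusted p = 0.287) and -0.30 (SE 0.17, adjusted p = 0.275) were not called. The fourth member of the family, IFIT2, was below the level tested.

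OAS enzymes make the oligoadenylates that switch on RNase L. OAS3 read 364, 231 and 254 in DMSO and 219, 175 and 126 in enzastaurin at 18 h. Enzastaurin was lower without overlap, although its highest array (219) was close to the lowest DMSO array (231), and the change of -0.66 (SE 0.23, adjusted p = 0.0499) sat at the threshold. It was lost without DMSO replicate 1 or 3 or enzastaurin replicate 2 or 3 (adjusted p up to 0.235) and in 8 other settings (up to 0.124, with only the groups compared). At 4 h OAS3 read 291, 359 and 479 in DMSO and 359, 391 and 369 in enzastaurin, and at 10 h 263, 298 and 225 in DMSO and 288, 204 and 331 in enzastaurin, with overlap both times.

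OASL, a catalytically inactive relative that boosts RNA sensing, read 244, 123 and 151 in DMSO and 279, 218 and 160.0 in enzastaurin at 4 h. The OASL arrays read 163, 128 and 166 in DMSO and 239.7, 118 and 205 in enzastaurin at 10 h. OASL at 18 h read 225, 239 and 127 in DMSO and 206, 295 and 238 in enzastaurin. The groups overlapped at each time, and its changes of 0.34, 0.23 and 0.33 were above 0 and not called. OAS2, the exonuclease ISG20 and the GTPase MX2 were not called either, with changes between -0.29 (MX2 at 4 h) and 0.43 (ISG20 at 18 h). OAS1 and MX1 were below the level tested.

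At the cell membrane, the IFITM proteins stop viruses from fusing with the cell and BST2 (tetherin) holds budding particles on its surface. IFITM2 read 771, 579 and 552 in DMSO and 424, 336 and 325 in enzastaurin at 18 h. The groups lay far apart, and the change of -0.78 (SE 0.13, adjusted p = 1.7e-04) kept its call in every setting in which it was tested. At 4 h it read 651, 616 and 638 in DMSO and 619.9, 641 and 659 in enzastaurin, with the groups mixed, and at 10 h 599.7, 527 and 516 in DMSO and 477, 470.3 and 509 in enzastaurin, with enzastaurin just below DMSO but no call (adjusted p = 0.52).

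IFITM3 read 897, 728 and 776 in DMSO and 673, 525 and 541 in enzastaurin at 18 h, for a change of -0.46 (SE 0.11, adjusted p = 0.00449). Enzastaurin was lower without overlap at 18 h and also at 10 h, when it read 1039, 1031 and 1014 in DMSO and 886, 917 and 875 in enzastaurin and was not called. The groups overlapped at 4 h, with 1052, 1326 and 1188 in DMSO and 1105, 1149 and 1249.5 in enzastaurin. IFITM2 and IFITM3 are near-identical and their probe sets are of the kind marked as able to bind related transcripts; whether these 2 results share signal was not tested. IFITM1, with changes of -0.23, 0.09 and 0.27, was not called.

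BST2 read 1349.7, 1148 and 1164 in DMSO and 867, 960.3 and 875 in enzastaurin at 18 h, with enzastaurin lower without overlap, for a change of -0.43 (SE 0.11, adjusted p = 0.0074). The adjusted p was 0.0512 without DMSO replicate 1. At 4 h it read 1001, 975 and 1094 in DMSO and 1244, 1146 and 1075 in enzastaurin, where enzastaurin was on the higher side, and at 10 h 976, 1153 and 1124 in DMSO and 823, 815 and 1064 in enzastaurin, where 1 enzastaurin array lay among the DMSO arrays.

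Of the other effectors, SAMD9 restricts poxviruses and slows translation. It read 361, 309 and 281 in DMSO and 112, 75.5 and 159.6 in enzastaurin at 10 h, with a wide gap between the groups, and the change of -1.38 (SE 0.29, adjusted p = 0.00382) was the largest called at that time. At 18 h it read 157, 299.7 and 232 in DMSO and 131, 135 and 143 in enzastaurin, again without overlap, but -0.65 (SE 0.29, adjusted p = 0.146) was not called, and at 4 h 269.7, 118 and 136 in DMSO and 129, 126 and 113 in enzastaurin, with overlap and 1 high DMSO array. A second SAMD9 probe set, below the level tested, gave -1.14 at 10 h and -1.58 at 18 h.

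SAMD9L, its neighbour and paralogue, read 217, 194 and 197 in DMSO and 112, 177 and 161 in enzastaurin at 4 h. It read 165, 188 and 163 in DMSO and 142, 119.7 and 219.6 in enzastaurin at 10 h. SAMD9L at 18 h read 176, 229 and 169 in DMSO and 166, 167 and 225 in enzastaurin. Enzastaurin was lower without overlap at 4 h alone, where the change of -0.42 (SE 0.23, adjusted p = 0.48) was not called.

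TRIM22, an E3 ubiquitin ligase that represses viral transcription, read 403, 298 and 469.7 in DMSO and 222, 206 and 244 in enzastaurin at 18 h. The groups did not overlap, and the change was -0.74 (SE 0.16, adjusted p = 0.00253), called in every setting in which it was tested. It read 484, 524 and 450.3 in DMSO and 491, 607 and 480.2 in enzastaurin at 4 h. At 10 h TRIM22 read 367, 436 and 409 in DMSO and 385, 347 and 465 in enzastaurin, and the groups overlapped at both of these times.

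CMPK2, a mitochondrial nucleotide kinase, read 252, 263 and 235 in DMSO and 233, 241 and 190.2 in enzastaurin at 4 h. It read 263, 286 and 229 in DMSO and 167, 127 and 277 in enzastaurin at 10 h. CMPK2 at 18 h read 288, 241 and 249 in DMSO and 193, 283 and 247 in enzastaurin. PARP14 is an ADP-ribosyltransferase, and it read 243, 292 and 295 in DMSO and 246, 247 and 342 in enzastaurin at 4 h. Its values were 250.8, 295 and 365 in DMSO and 196, 178 and 309 in enzastaurin at 10 h. PARP14 at 18 h read 312, 227 and 357 in DMSO and 198, 224 and 363 in enzastaurin. Both had overlapping groups at each time and were not called, with average changes of -0.25 (SE 0.13, adjusted p = 0.195) and -0.21 (SE 0.14, adjusted p = 0.353).

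PARP9, which works with the ubiquitin ligase DTX3L, and SP110, a nuclear body protein, were not called on their brightest probe sets, where the 18 h changes were 0.28 and -0.20. Their probe sets differed from each other. A second PARP9 probe set had a log2 change of -0.88 at 18 h (adjusted p = 4.6e-04 in the limma fit over all probe sets), and of the 4 other SP110 probe sets 1 had a change of -0.50 (adjusted p = 0.037), 1 of -0.45 (adjusted p = 0.115), 1 of 0.07 (adjusted p = 0.888), and 1 was below the level tested. Which transcripts each probe set reads was not tested.

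IFI44 and IFI44L lie next to each other on chromosome 1 and are induced together by interferon. IFI44 read 2442, 2625 and 2599 in DMSO and 1998, 1940.3 and 2172 in enzastaurin at 10 h, with enzastaurin lower without overlap and a change of -0.33 (SE 0.07, adjusted p = 0.00709). At 18 h it read 2539, 2537 and 2750.4 in DMSO and 2370.2, 2249 and 2322 in enzastaurin, still without overlap but with a change of -0.17 (SE 0.07, adjusted p = 0.128), and at 4 h 3159.9, 2941 and 3065 in DMSO and 2571, 3045 and 3110.3 in enzastaurin, with overlap. The 10 h call was lost with array medians subtracted (0.0956) and with the mean over both IFI44 probe sets (0.492).

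IFI44L went the other way at 18 h, reading 411, 586 and 383 in DMSO and 898, 736 and 649 in enzastaurin, with enzastaurin higher without overlap. Its change of 0.72 (SE 0.14, adjusted p = 9.6e-04) was the only called increase at a single time, and it kept its call in every setting. At 4 h it read 906, 1133 and 1054 in DMSO and 1233, 1118 and 1249.8 in enzastaurin. The 10 h arrays of IFI44L read 538, 586 and 539 in DMSO and 574, 531 and 505 in enzastaurin, and the groups overlapped at both times. IFI44 stood at -0.17 at 18 h, and the difference between these neighbours was not tested.

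IFI6, a membrane protein that limits flavivirus replication, read 617, 601 and 674 in DMSO and 784, 546 and 375 in enzastaurin at 4 h. It read 601, 609 and 549 in DMSO and 457, 506 and 445 in enzastaurin at 10 h. IFI6 at 18 h read 682, 494 and 421 in DMSO and 424, 391 and 320.4 in enzastaurin. Only at 10 h did the groups not overlap, and the average change of -0.33 (SE 0.11, adjusted p = 0.0502) was just outside the threshold. IFI27, a small mitochondrial protein, read 177, 127 and 137 in DMSO and 138, 219 and 146 in enzastaurin at 4 h. Its values were 113, 89.8 and 104 in DMSO and 132, 104 and 156 in enzastaurin at 10 h. IFI27 at 18 h read 129.7, 14.7 and 137 in DMSO and 128, 146 and 147 in enzastaurin. The groups overlapped at 18 h, where 1 DMSO array stood at 14.7 and the change was 0.82 (SE 0.42, adjusted p = 0.213). IFI35 was not called, with changes from -0.24 to 0.23, and XAF1, a pro-apoptotic factor, was below the level tested.

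CD274 was the 1 gene called at all 3 times. It read 1204, 1319 and 1209 in DMSO and 929, 888 and 1044 in enzastaurin at 4 h. CD274 read 904, 1142 and 958 in DMSO and 733, 710.2 and 747 in enzastaurin at 10 h. CD274 at 18 h read 756, 826 and 741 in DMSO and 577, 588 and 571 in enzastaurin. Every enzastaurin array was below every DMSO array of its time, and the changes were -0.38 (SE 0.10, adjusted p = 0.0446), -0.44 (SE 0.10, adjusted p = 0.00499) and -0.41 (SE 0.10, adjusted p = 0.00452). The average was -0.41 (SE 0.06, adjusted p = 1.6e-05). Single times were less firm: the 4 h call was lost without any array but enzastaurin replicate 3 (adjusted p up to 0.162), and in 5 other settings (up to 0.306, with array medians subtracted), while the adjusted p at 10 h was 0.0655 with array medians subtracted and that at 18 h 0.067 with the mean over probe sets. A second CD274 probe set gave -0.29, -0.41 and -0.10 at the 3 times, none called.

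**Figure D4:**
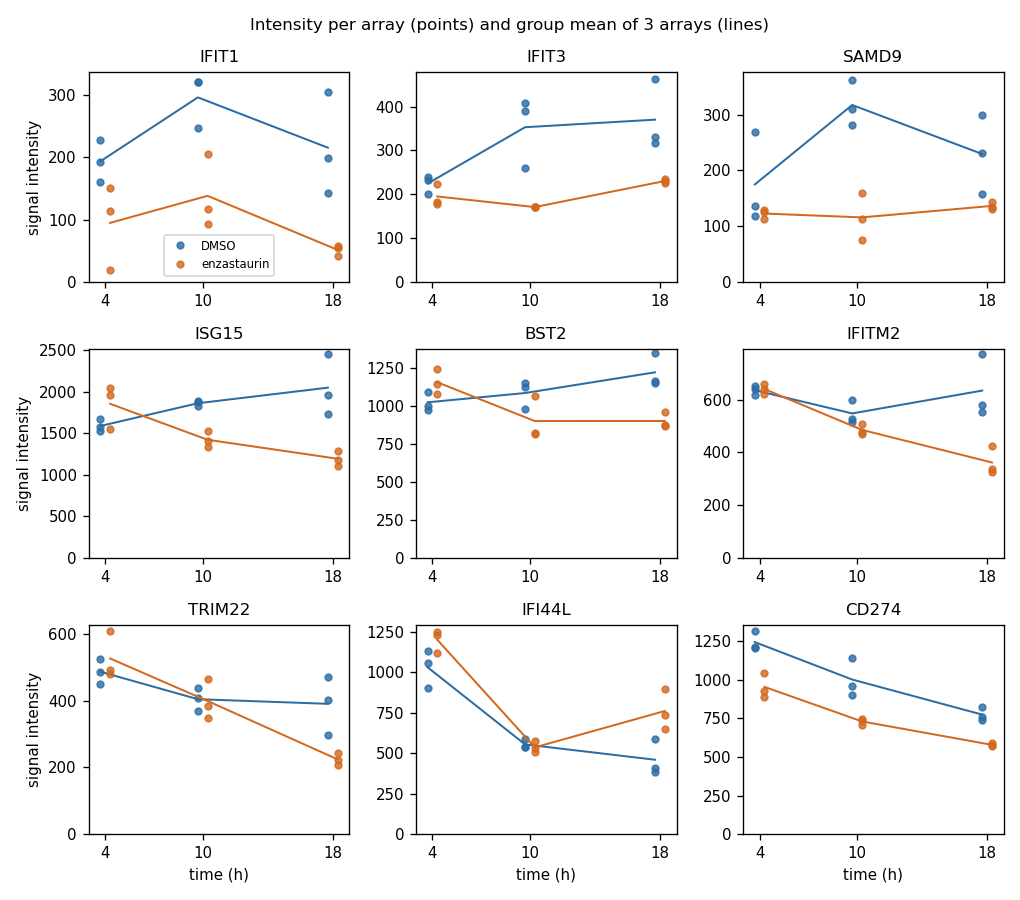
Signal intensity (vertical axis, linear from 0) of 9 genes on each array against time in hours, with 3 DMSO and 3 enzastaurin arrays per time (points) and group means (lines). For ISG15, BST2, IFITM2 and TRIM22 the groups overlap at 4 h and not at 18 h, CD274 is lower at every time, and IFI44L is higher with enzastaurin at 18 h.

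Whether the effect of enzastaurin changed with time was tested as the difference between the effects at 2 times. The 18 h effect was lower than the 4 h effect for 5 of the 32 genes and higher for 0. Of all 12376 genes it was lower for 459 and higher for 504, which is 7.78% with both directions together. The difference was -0.97 (SE 0.16, adjusted p = 4.4e-04) for ISG15, -0.84 (SE 0.23, adjusted p = 0.0243) for TRIM22, -0.79 (SE 0.18, adjusted p = 0.00861) for IFITM2, -0.60 (SE 0.15, adjusted p = 0.016) for BST2 and -0.43 (SE 0.12, adjusted p = 0.0254) for EIF2AK2. In each the 4 h change lay above 0 and the 18 h change below it. The 4 h changes were not called, and the arrays overlapped. They ran from 0.01 (SE 0.13, adjusted p = 0.989) for IFITM2 to 0.21 (SE 0.11, adjusted p = 0.444) for ISG15, so a rise at 4 h was not shown. Leaving out single arrays ended the call of EIF2AK2 in 6 of 12 cases (adjusted p up to 0.0816) and of TRIM22 in 5 of 12 (up to 0.0704), and of the other 3 genes in 0 of 12. For TRIM22 the arrays were 4 h DMSO replicate 3, 18 h DMSO replicates 1 and 3, and enzastaurin replicate 2 at 4 and at 18 h. For EIF2AK2 they were DMSO replicate 1 at 4 and 18 h, 18 h DMSO replicate 2, 4 h enzastaurin replicates 1 and 3, and 18 h enzastaurin replicate 2, and its adjusted p was also 0.079 with array medians subtracted, 0.194 with the mean over probe sets and 0.0545 with no trend.

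Between 4 and 10 h the effect differed for 0 of the 32 genes by limma, where 1.41% of all genes differed, and 5 of the 32 had an unadjusted p below 0.05, where 12.8% of all genes did. Between 10 and 18 h it differed for 1, IFI44L, by 0.77 (SE 0.20, adjusted p = 0.0442), where 2.23% of all genes did. That call did not outlast the loss of 10 of the 12 single arrays (adjusted p up to 0.125), namely any array but DMSO 18 h replicate 2 and enzastaurin 18 h replicate 3, and it was lost in 5 other settings (up to 0.248, with array medians subtracted). IFIT1, IFIT3 and CD274, lower at 18 h, differed between 4 and 18 h by -0.54 (SE 0.60, adjusted p = 0.692), -0.44 (SE 0.27, adjusted p = 0.377) and -0.03 (SE 0.13, adjusted p = 0.94), so no change of their effect with time was shown.

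From 4 to 18 h in DMSO, 7 of the 32 genes (21.9%) were called, a share near the 20.3% of all genes. The genes that fell were IFI44L, with a log2 change of -1.16 (SE 0.14, adjusted p = 5.2e-06), CD274 with -0.67 (SE 0.10, adjusted p = 3.8e-05), IFITM3 with -0.56 (SE 0.11, adjusted p = 6.8e-04) and IFI44 with -0.23 (SE 0.07, adjusted p = 0.0328). IFIT3 rose by 0.67 (SE 0.19, adjusted p = 0.0146), IFIT5 by 0.50 (SE 0.17, adjusted p = 0.0459) and ISG15 by 0.35 (SE 0.11, adjusted p = 0.0291). Without single arrays, the largest adjusted p was 0.0993 for IFIT3 (4 h replicate 2 or 18 h replicate 1 left out), 0.264 for IFIT5 (4 h replicate 1 or 3, 18 h replicate 1 or 3), 0.196 for ISG15 (4 h replicate 2 or 3, 18 h replicate 1 or 2) and 0.111 for IFI44 (4 h replicate 1 or 3, 18 h replicate 1 or 2). The call of IFIT5 was also lost in 5 other settings (up to 0.104, with only the groups compared), and the adjusted p was 0.112 with the mean over probe sets for IFIT3, 0.0865 with array medians subtracted and 0.0594 with no trend for ISG15, and 0.15 with array medians subtracted, 0.686 with the mean over probe sets and 0.0563 with no trend for IFI44.

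From 4 to 18 h in enzastaurin, 11 of the 32 genes (34.4%) were called, a share near the 30.0% of all genes. By direction, 10 were lower and 1 (IRF1) higher, where 1679 of all 12376 genes were called lower and 2031 higher. The log2 change was -1.17 (SE 0.16, adjusted p = 1.0e-05) for TRIM22, -1.07 (SE 0.23, adjusted p = 0.00107) for OAS3, -0.80 (SE 0.13, adjusted p = 5.8e-05) for IFITM2 and -0.70 (SE 0.10, adjusted p = 8.8e-06) for CD274. IFITM3 fell from 1105, 1149 and 1249.5 to 673, 525 and 541 (adjusted p = 4.0e-07). IFI44L, ISG15, EIF2AK2, BST2 and IFI44 fell too, with changes of -0.66, -0.62, -0.39, -0.35 and -0.32, and the call of BST2 was lost without enzastaurin replicate 1 at 4 or at 18 h (adjusted p up to 0.0761). ISG15 thus rose over time with DMSO and fell with enzastaurin, while CD274, IFITM3 and IFI44L fell with both. IFI44 fell with both on its brightest probe set only: its second probe set gave 0.43 in DMSO and 0.63 in enzastaurin, neither called, and the mean over probe sets gave 0.10 (adjusted p = 0.686) and 0.16 (adjusted p = 0.445). The enzastaurin call of EIF2AK2 had an adjusted p of 0.15 with the mean over probe sets. These time courses share arrays with the comparisons of enzastaurin and DMSO above.

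The rest of the pathway was followed in 89 genes on 6 lists, of which 82 had a probe set and 64 were tested. Of the 64, 1 was called lower at 4 h, 7 lower at 10 h, and 13 lower and 2 higher at 18 h, 17 genes in all, against the shares of all genes given above (at 18 h, 7.9% lower and 8.1% higher). The median changes of the 64 were 0.00, -0.12 and -0.10 at 4, 10 and 18 h. The interferons themselves were hardly read: IFNB1, IFNA1, IFNA2, IFNE, IFNK, IFNG and IFNL1 were below the level tested. IFNL2, named because it was the only ligand tested, was not called.

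Among receptors and kinases, 4 of 9 were called lower at 18 h, where 7.9% of all genes were called lower. IFNAR1 read 412, 400.3 and 402 in DMSO and 227, 235 and 221 in enzastaurin at 18 h, with a wide gap and a change of -0.79 (SE 0.20, adjusted p = 0.00873). In DMSO it stood at 232, 186 and 191 at 4 h, and its rise to 18 h, 0.95 (SE 0.20, adjusted p = 0.0017), stood beside 0.04 (SE 0.20, adjusted p = 0.919) in enzastaurin. The test of that difference, the 18 h effect minus the 4 h effect, gave -0.91 (SE 0.28, adjusted p = 0.0521) and was not called. The mean over all IFNAR1 probe sets was not called at 18 h (adjusted p = 0.313). The other tested IFNAR1 probe sets gave -1.155 and -0.04 at 18 h. Their adjusted p was 0.0355 and 0.934 in the limma fit over all probe sets. An IFNAR1 probe set below the level tested gave 0.72. IFNAR2, its partner, had changes of 0.03, -0.37 and -0.06, none called.

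JAK1, the kinase shared by all interferon receptors, read 2885, 2913 and 3087 in DMSO and 2593, 2440.4 and 2134 in enzastaurin at 10 h and 2997, 3153 and 3238 in DMSO and 2627, 2529.9 and 2627 in enzastaurin at 18 h. Enzastaurin was lower without overlap at both times, with changes of -0.31 (SE 0.07, adjusted p = 0.00967) and -0.27 (SE 0.07, adjusted p = 0.0147). Neither call remained with the mean over all JAK1 probe sets (0.556 and 0.839) or with array medians subtracted (0.218 and 0.18), and single arrays ended them too: replicate 3 of either group at 10 h (up to 0.0637) and DMSO replicate 3 at 18 h (0.0599). The other tested JAK1 probe sets gave -0.46 (adjusted p = 0.0394 in the limma fit over all probe sets) and -0.18 (adjusted p = 0.343) at 18 h. At 10 h they gave -0.18 and -0.19, neither called. Those below the level tested gave 0.14 and 0.44 at 18 h. TYK2 was not called, with 0.44 (SE 0.19, adjusted p = 0.324) at 4 h the largest of its changes. IFNGR2, a chain of the interferon gamma receptor, changed by -0.39 (SE 0.09, adjusted p = 0.00578) at 18 h and IL10RB, a chain of the lambda receptor, by -0.29 (SE 0.09, adjusted p = 0.0354), the latter up to 0.131 without DMSO replicate 1 or 2 or enzastaurin replicate 2 or 3, and 0.173 with array medians subtracted, 0.0563 with array weights and 0.111 with only the groups compared.

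Of 7 factors and inhibitors, SOCS3 and IRF2 were called. Of all genes, 1.25%, 4.69% and 7.9% were called lower at 4, 10 and 18 h. SOCS3, a feedback inhibitor of JAK kinases, read 707, 757 and 684 in DMSO and 347, 421 and 302 in enzastaurin at 10 h, for a change of -0.99 (SE 0.17, adjusted p = 8.7e-04). It was lower without overlap at 4 and 18 h as well, with changes of -0.70 (SE 0.17, adjusted p = 0.042) and -0.61 (SE 0.17, adjusted p = 0.0194). Both of those calls were lost without 4 of the 6 single arrays: any DMSO replicate or enzastaurin replicate 3 at 4 h (up to 0.203), and DMSO replicate 1 or 3 or enzastaurin replicate 2 or 3 at 18 h (up to 0.0918). The 4 h call was also lost in 6 other settings (up to 0.157, with array medians subtracted), and the 18 h adjusted p was 0.234 with the mean over probe sets. IRF2, which competes with IRF1 for the response element, read 356, 476 and 555 in DMSO and 231, 138 and 223 in enzastaurin at 18 h, with a wide gap and a change of -1.18 (SE 0.23, adjusted p = 0.00101). At 10 h its change was -0.81 (SE 0.23, adjusted p = 0.0312), lost without replicate 1 of either group, DMSO replicate 3 or enzastaurin replicate 2 (up to 0.184); the adjusted p was 0.0621 with no level filter, 0.0684 with array medians subtracted and 0.055 with only the groups compared.

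Of 9 sensors and adaptors, TRIM25, a ubiquitin ligase that activates RIG-I, was called higher at 18 h, with a change of 0.30 (SE 0.10, adjusted p = 0.0335), a call lost without any array but enzastaurin replicate 2 (up to 0.218) and in 6 other settings (up to 0.697, with the mean over probe sets). Of 14 antigen presentation genes, the immunoproteasome subunit PSMB8 was called lower at 18 h: it read 276, 189.8 and 232 in DMSO and 57.9, 210.2 and 55.3 in enzastaurin, with 1 enzastaurin array among the DMSO arrays and a change of -1.22 (SE 0.30, adjusted p = 0.00795). Without enzastaurin replicate 1 or 3 its adjusted p was up to 0.0579, and it was 0.0821 with only the groups compared. Of all genes, 8.1% were called higher and 7.9% lower at 18 h. The 1 of 14 antigen presentation genes called lower (7.14%) was near that share.

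Of 24 other interferon-responsive genes, 4 were called lower at 10 h, and 6 lower and 1 higher at 18 h. Of all genes, 4.69% were called lower at 10 h, and 7.9% lower and 8.1% higher at 18 h. GBP3, an interferon-induced GTPase, changed by -0.74 (SE 0.13, adjusted p = 5.1e-04) at 18 h, where it read 463, 413 and 349 in DMSO and 264, 233 and 217 in enzastaurin. TRIM14, an adaptor of antiviral signalling, changed by -0.72 (SE 0.13, adjusted p = 5.8e-04), the nuclear body protein SP100 by -0.95 (SE 0.18, adjusted p = 8.9e-04) and NMI, a STAT-binding protein, by -0.45 (SE 0.11, adjusted p = 0.00536). The groups did not overlap for these 4 genes at 18 h, and the calls of TRIM14 and SP100 did not remain with the mean over their probe sets (0.274 and 0.271). GBP3 and NMI were also called lower at 10 h, with -0.54 (limma adjusted p = 0.0135) and -0.40 (0.0224). GBP3 lost that call without DMSO replicate 1 or 2 (up to 0.0573) and with array medians subtracted (0.0614). NMI lost it without DMSO replicate 1 or 2 or enzastaurin replicate 2 or 3 (up to 0.115). The NMI call was also lost with array medians subtracted (0.137) and with only the groups compared (0.0656). GBP1 and ZC3HAV1 at 18 h, with -0.98 and -0.22, and DTX3L and PLSCR1 at 10 h, with -0.56 and -0.25, were the other genes called lower, and are named after their values were seen, as is CXCL9, the 1 increase. Of these, DTX3L kept its call without any single array, GBP1 lost it without replicate 1 of either group (up to 0.055), PLSCR1 without replicate 1 or 2 of either group (up to 0.122) and ZC3HAV1 without any array but enzastaurin replicate 1 (up to 0.147). ZC3HAV1 also lost it in 7 other settings (up to 0.269, with array medians subtracted), and the adjusted p was 0.183 with array medians subtracted, 0.809 with the mean over probe sets and 0.071 with only the groups compared for PLSCR1 and 0.0945 with only the groups compared for GBP1. The chemokine CXCL9 changed by 1.21 (SE 0.41, adjusted p = 0.0499), a call lost without DMSO replicate 1 or any enzastaurin replicate (up to 0.272) and in 7 other settings (up to 0.0945, with only the groups compared).

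**Figure D5:**
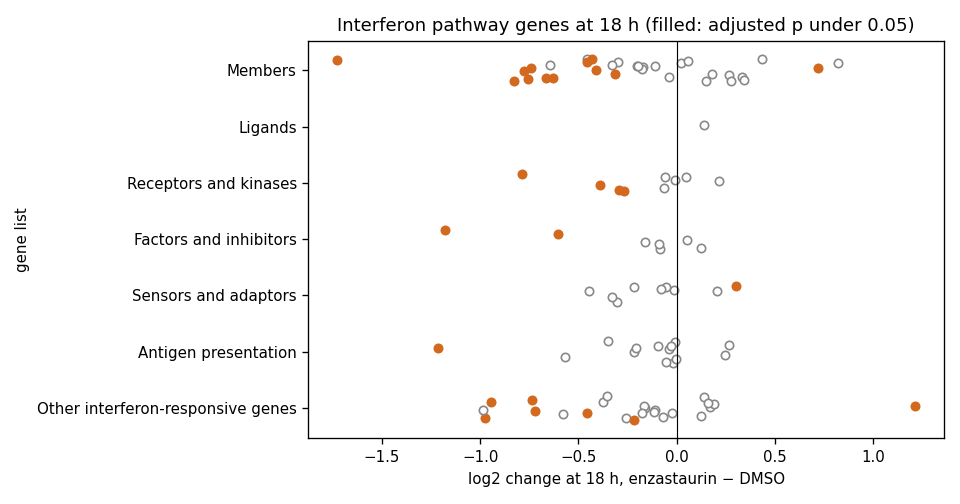
Log2 change at 18 h, enzastaurin minus DMSO, of the 32 tested interferon-stimulated genes (top row) and the 64 tested genes of the 6 pathway lists (other rows), 1 point per gene, filled where the adjusted p is below 0.05. Filled points lie to the left of 0 apart from IFI44L, TRIM25 and CXCL9.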

How the data were processed

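The deposited table holds 1 signal intensity per probe set and array on a linear scale, made by the authors with GCOS 1.2, per the submitters' processing notes; the trimmed means of the arrays are equal, and what scaling produced this is not given in the sources used here. Of 54613 probe sets, 41091 had 1 gene symbol in the platform annotation, 1801 several and 11721 none. Symbols were updated through gene IDs to RefSeq GRCh38.p14 (41037 matched). Intensities were taken as log2(intensity + 16), so folds of dim genes are understated. For each gene the brightest probe set was kept, and genes at or above the median of all probe sets were tested with limma 3.58.1 in R 4.3.3: 1 mean per group, empirical Bayes with a trend on level, and Benjamini-Hochberg adjustment per comparison over 12376 genes, with calls below 0.05. The fit was tested on simulated data. Figures used matplotlib 3.10.9.

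The members, the pathway lists and the tests were chosen with earlier results of these data known. Arrays were printed one by one for members called in any comparison and for 6 others with the largest average change; pathway genes were named if called, up to 4 per list by adjusted p, with IFNAR1, IFNAR2, JAK1 and TYK2 in any case. Alternatives covered the offset, the level filter, normalization, probe set choice, array weights, the variance trend, the groups in the fit, the replicate number as a block and leaving out single arrays.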

Additional observations from a re-analysis of the deposited data

Results flagged for a closer look

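For 6 of the 32 tested genes the effect of enzastaurin differed between times by the limma test of that difference. For 5 it differed between 4 and 18 h, where 7.78% of all genes differed with both directions together (459 lower and 504 higher). For 1 it differed between 10 and 18 h, where 2.23% did. The 18 h effect minus the 4 h effect was -0.97 for ISG15, -0.84 for TRIM22, -0.79 for IFITM2, -0.60 for BST2 and -0.43 for EIF2AK2 on the log2 scale, with adjusted p-values from 4.4e-04 (ISG15) to 0.0254 (EIF2AK2). The 18 h effect minus the 10 h effect was 0.77 for IFI44L (adjusted p = 0.0442). The first 5 moved down and IFI44L moved up.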

How the results depend on the processing

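Precision was limited by 3 arrays per group. Of the values recomputed for called genes, 1179 kept their direction and call, 225 kept the direction but lost the call, and 2 reversed: with the mean over probe sets, IFI44 read 0.103 from 4 to 18 h in DMSO and 0.155 in enzastaurin. Subtracting array medians moved the median change of all genes at 4 h to 0.12. Calls at 4 h fell from 1 to 0 with no level filter, array medians subtracted, the mean over probe sets, only the groups compared, and the replicate block. Calls at 10 h, 5 in the main setting, were 3 among the brightest 25% of probe sets, 2 with array medians subtracted, 3 with the mean over probe sets and 8 with array weights. Calls at 18 h were 7 instead of 12 among the brightest 25%, where fewer members are tested. The difference of the 10 and 4 h effects gave 1 call instead of 0 among the brightest 25%, with array weights and with only the groups compared. That of the 18 and 10 h effects gave 0 instead of 1 with array medians subtracted, the mean over probe sets, no trend and only the groups compared. Calls from 4 to 18 h in DMSO were 4 instead of 7 with array medians subtracted or no trend. Pathway calls were 11 instead of 17 among the brightest 25%, with array medians subtracted and with the mean over probe sets, and 10 with only the groups compared. Where not stated, the cause was not tested. Leaving out single arrays gave 0 to 1 calls at 4 h, 4 to 6 at 10 h, 8 to 11 at 18 h, 9 to 12 in the average, 0 to 1, 3 to 6 and 0 to 2 for the effect differences of 10 minus 4, 18 minus 4 and 18 minus 10 h, 4 to 6 over time in DMSO, 9 to 13 in enzastaurin, and 13 to 17 pathway genes. Deviations from the group means were compared between the DMSO and enzastaurin arrays of the same replicate number at each time. Their correlations ran from -0.0814 to 0.0544. Arrays of different numbers or times were not compared, so these values cannot show whether the replicates were paired. With the replicate block, calls were 0 at 4 h, 5 at 10 h, 10 at 18 h and 11 in the average.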

Other observations

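Of the 8 members below the median level, 2 had large changes when the level filter was left out. IFIT2 read 107, 120.2 and 145 in DMSO and 13.6, 21.2 and 19.4 in enzastaurin at 10 h, without overlap, for a log2 change of -2.04 (SE 0.59, limma adjusted p = 0.0598). Low IFIT2 readings also occurred on 1 DMSO and 1 enzastaurin array at 4 h (36.5 and 19.0) and on 1 enzastaurin array at 18 h (19.0). A second IFIT2 probe set gave -1.47 at 10 h. OAS1 read 88.3, 55.0 and 65.0 in DMSO and 27.9, 47.5 and 12.4 in enzastaurin at 10 h and 17.3, 39.6 and 26.3 in DMSO and 65.0, 104 and 73.6 in enzastaurin at 18 h. The change was -0.97 (adjusted p = 0.148) at the first of these times and 1.16 (adjusted p = 0.0443) at the second, and the difference between them was 2.13 (adjusted p = 0.04). A second OAS1 probe set gave -0.57 at 10 h and -0.24 at 18 h, so the direction at 18 h differed between the probe sets. HERC6 had changes of -0.63 at 10 h and -0.72 at 18 h, neither called.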
